A study of Mus musculus with 10 samples.

Results

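The mitochondrial ribosomal proteins were followed in RNA from the hearts of 10 mice. Members were the genes of the deposited table whose symbol is Mrpl, for the large subunit, or Mrps, for the small subunit, followed by a number, with names marked as pseudogenes (-ps, 5 genes) left out. The rule gave 77 of 11790 genes, 48 of the large and 29 of the small subunit. Control hearts (5) came from PDK1 flox/flox mice and the other 5 from A-PDK1KO mice, which lack PDK1 (3-phosphoinositide-dependent kinase 1, encoded by Pdpk1) in adipocytes. All mice were 10 to 11 weeks old and randomly fed, and the hearts were frozen in liquid nitrogen. The labels do not name the promoter that drives the deletion. The deletion is in adipocytes and not in heart muscle, so the hearts carry no planned change of their own. The labels number the hearts 1 to 5 in each group without saying more about their origin, so p-values measure the spread between these samples.

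The ribosome of mitochondria translates the messenger RNAs of the mitochondrial genome, which encode core subunits of the respiratory chain complexes and of ATP synthase. Its ribosomal RNAs are made inside the organelle, whereas its proteins are encoded in the nucleus, made in the cytosol and imported. Heart muscle, packed with mitochondria, depends on this supply, and inherited defects of several of these proteins cause cardiomyopathy in people. Some members descend from proteins of the bacterial ribosome and others are found only in mitochondria.

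Levels are in FPKM, fragments counted per length of gene and per size of library, and the libraries held 9249256 to 11384420 counted reads. Between 32.7% and 41.5% of counted reads came from mitochondrially encoded genes. Cardiomyocyte markers (7 of 7 measured) summed to 12683 to 15291 FPKM in control and 11984 to 13787 FPKM in A-PDK1KO hearts. Of 4 adipocyte markers, Cfd alone could be followed, at 0 to 1.11 FPKM in control and 0 to 1.36 FPKM in A-PDK1KO hearts. The red cell markers summed to 27.9 to 1391 FPKM in control and 68.6 to 228 FPKM in A-PDK1KO hearts, and no marker of any cell type that was tested passed the test below. Atrial tissue varied, since the atrial myosin gene Myl7 ranged from 35.0 to 85.9 FPKM in 4 hearts (control replicates 2 and 5, A-PDK1KO replicates 3 and 5) and stayed below 1 FPKM elsewhere. Pdpk1 was at 3.55 ± 0.257 FPKM in control and 3.46 ± 0.514 FPKM in A-PDK1KO hearts (SD, n = 5), which does not test a deletion made in adipocytes. A-PDK1KO replicate 2 stood apart, with 10723 genes reaching 1 FPKM (9671 to 10214 in any other heart). All hearts were kept.

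Transcripts of all 77 members were detected in every heart, and the reads behind them numbered 77 to 2466 per gene and heart. Only genes that reach 1.0 FPKM in some heart were listed, so a gene of this family below that level is not among the 77. Levels compared per length spanned 43.1-fold, from 2.64 FPKM for Mrps10 to 113 FPKM for Mrps21 (mean of 10 hearts), with a median of 15.7 FPKM. There were 12 members above 50 FPKM, 51 above 10 FPKM and 10 under 5 FPKM. In the large subunit the highest were Mrpl12 (79.0 FPKM), the stalk protein that also binds the mitochondrial RNA polymerase, Mrpl34 (66.9 FPKM) and Mrpl28 (61.7 FPKM). Its lowest were Mrpl19 (3.43 FPKM), Mrpl33 (4.66 FPKM) and Mrpl32 (4.71 FPKM). In the small subunit Mrps21 was followed by Mrps23 (68.7 FPKM) and Mrps36 (51.9 FPKM), and Mrps10 lay next to Mrps22 (3.34 FPKM) and Mrps17 (4.09 FPKM). Proteins of 1 particle were thus represented by unequal amounts of messenger RNA per length. Part of that order follows gene length, by which FPKM divides: level and exon length correlated at r = -0.78 over the 77 genes (log2 scales, Pearson, a description). Mrps10 has 8079 bp of annotated exons, Mrpl33 7326 bp, Mrps21 739 bp and Mrpl34 607 bp, and exons that heart transcripts do not use would lower an FPKM value.

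**Figure D1:**
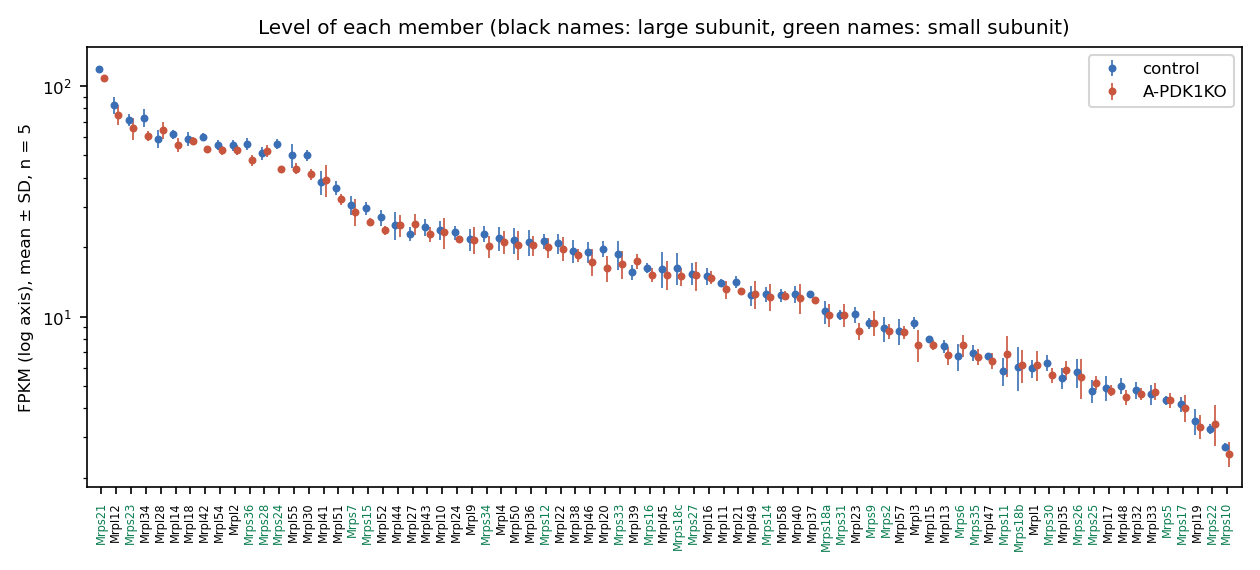
Mean FPKM on a log axis for each of the 77 members, ordered by level, in control (blue) and A-PDK1KO (red) hearts, with bars of 1 SD (n = 5 per group). Levels run from 113 FPKM for Mrps21 to 2.64 FPKM for Mrps10, and both groups keep close to the same order.

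Between hearts of a group, the SD of log2(FPKM + 1) had a median of 0.121 over the members and 0.157 over all genes tested. The members are more abundant than most genes (median 15.7 against 4.41 FPKM), and the spread of other genes at their level was not taken. Spread was smallest for Mrps21 (0.030), Mrpl37 (0.033) and Mrpl42 (0.046). It was largest for Mrps18b (0.245), for Mrpl45 (0.225), which holds the ribosome to the inner membrane, and for Mrps11 (0.220). Reads per heart numbered 77 to 160 for Mrps18b, 345 to 521 for Mrpl45 and 92 to 190 for Mrps11.

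Against controls, 2 members passed the test in A-PDK1KO hearts, 1 from each subunit, and both were lower: Mrps24 fell by 22.5% and Mrpl30 by 17.3%. No member was called higher. The test was limma on log2(FPKM + 1), fitted to the 9987 genes averaging 1 FPKM or more, two-sided, and a gene was called at a Benjamini-Hochberg adjusted p under 0.05. Over all genes tested 0.871% were called lower and 1.21% higher, 2.08% in all, so 2 of 77 lower (2.60%) is a small number on either reckoning. Log2 differences below are A-PDK1KO minus control on the log2(FPKM + 1) scale, where the pseudocount shrinks differences of low genes. In bulk heart tissue, fewer cells of a type and less RNA per cell cannot be told apart.

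Mrps24 (ENSMUSG00000020477, mm10 chromosome 11, 5703983 to 5715680, minus strand) encodes the small-subunit protein related to the bacterial protein at the entrance of the messenger RNA channel. Its control hearts, in replicate order, measured 54.8, 58.8, 57.1, 58.1 and 52.3 FPKM, and its A-PDK1KO hearts 44.1, 45.4, 42.6, 43.7 and 42.0 FPKM. The highest A-PDK1KO heart lay well below the lowest control heart. The mean fell from 56.2 ± 2.68 to 43.6 ± 1.35 FPKM (SD, n = 5 per group), a log2 difference of -0.36 ± 0.05 (SE, limma adjusted p = 0.00956). The call survived each of 10 fits without 1 heart (adjusted p from 0.0188 to 0.0370) and was lost on the TPM scale (0.0538) and in the 6 hearts with little atrial tissue (0.254), where the log2 difference was -0.35. In the GENCODE annotation, which gives the span above, exons of Mrps24 share 226 bp, on the same strand, with those of Urgcp, its upstream neighbour. Urgcp spans 5713417 to 5762376, so the shared stretch lies upstream of the RefSeq promoter window of Mrps24 printed below. That window uses a start inside the GENCODE span. Urgcp stood at 12.3 ± 1.53 FPKM in control and 10.3 ± 0.555 FPKM in A-PDK1KO hearts (log2 difference -0.23, limma unadjusted p = 0.0147, adjusted p = 0.188). Its groups did not overlap either, with the A-PDK1KO hearts lower. How reads in the shared stretch were assigned was not tested.

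Mrpl30 (ENSMUSG00000026087) encodes a large-subunit protein with a bacterial relative. Its control hearts measured 48.9, 46.1, 50.9, 50.5 and 53.8 FPKM and its A-PDK1KO hearts 43.9, 40.3, 39.6, 43.7 and 39.5 FPKM, in the same order. The groups did not overlap, although control replicate 2 and A-PDK1KO replicate 1 came close. The mean fell from 50.1 ± 2.83 to 41.4 ± 2.20 FPKM, a log2 difference of -0.27 ± 0.06 (SE, limma adjusted p = 0.0438). This call is near the threshold: of 10 fits without 1 heart it survived 1, that without control replicate 2, and was lost without any other heart (adjusted p from 0.0473 to 0.117). It held in 7 of 15 other settings. Stretches of Mrpl30 recur at 95% identity or more in the genes Gm11945 and Gm6238, so part of its reads may have more than 1 source.

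**Figure D2:**
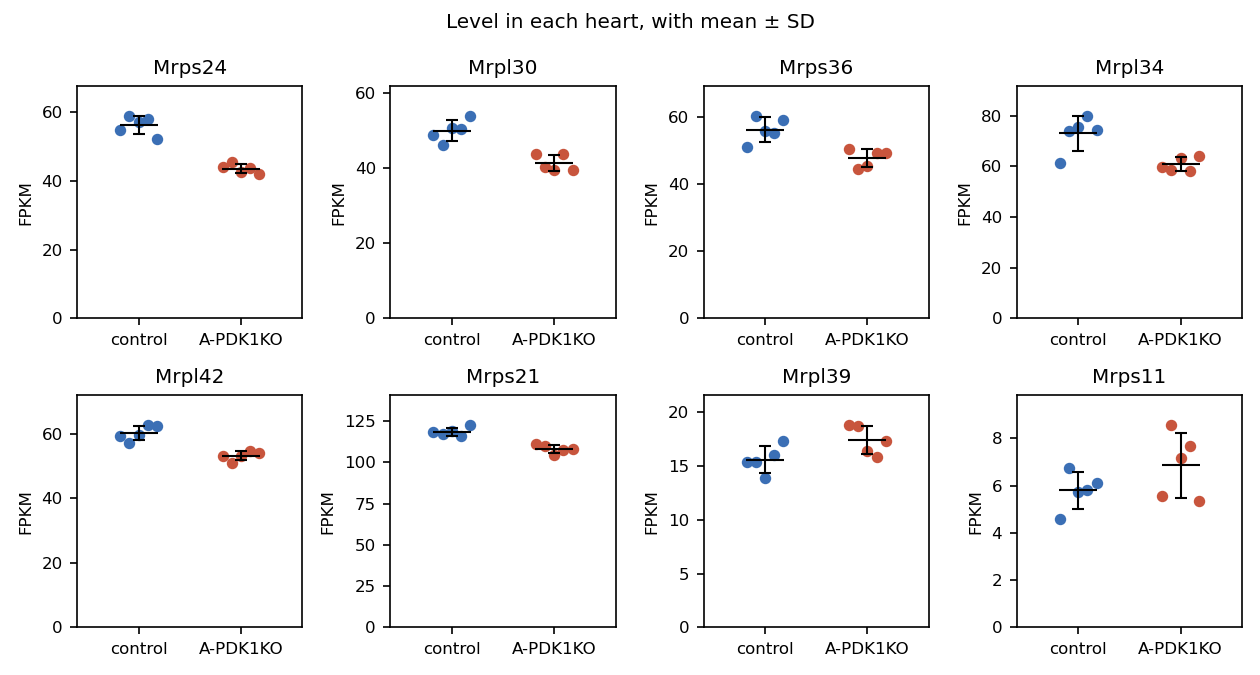
FPKM in each heart (points, replicates 1 to 5 from left to right) with mean and SD for 8 members, control in blue and A-PDK1KO in red, axes starting at 0. Mrps24 and Mrpl30 passed the test; Mrps36, Mrpl42 and Mrps21 also show groups that do not overlap, Mrpl34 overlaps, and Mrpl39 and Mrps11 are among the members with a higher mean in A-PDK1KO hearts.

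Promoters were read from the RefSeq annotation of GRCm38.p6, the sequence of mm10, as 250 bases before to 50 bases after each annotated start. They were found for 68 of the 77 members. The first 5 below belong to members whose groups did not overlap, among them both called genes, and Mrpl22 is shown because it pairs the NRF1 and ETS letters. Each is written 5′ to 3′ on the strand of its gene, and capitals mark matches on either strand to the motif letters given after them. Mrps24 lies at chr11:5707652-5707951 on the minus strand, Mrpl30 at chr1:37890227-37890526 on the plus strand, Mrpl42 at chr10:95501900-95502199 on the minus strand, Mrpl37 at chr4:107066817-107067116 on the minus strand, Mrps21 at chr3:95871465-95871764 on the minus strand and Mrpl22 at chr11:58171414-58171713 on the plus strand.
Mrps24: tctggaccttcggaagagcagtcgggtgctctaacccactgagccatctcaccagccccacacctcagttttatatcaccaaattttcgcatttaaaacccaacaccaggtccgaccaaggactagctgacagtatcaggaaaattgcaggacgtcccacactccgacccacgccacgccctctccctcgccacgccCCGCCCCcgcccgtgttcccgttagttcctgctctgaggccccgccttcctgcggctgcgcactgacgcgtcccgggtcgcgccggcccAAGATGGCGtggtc
Mrpl30: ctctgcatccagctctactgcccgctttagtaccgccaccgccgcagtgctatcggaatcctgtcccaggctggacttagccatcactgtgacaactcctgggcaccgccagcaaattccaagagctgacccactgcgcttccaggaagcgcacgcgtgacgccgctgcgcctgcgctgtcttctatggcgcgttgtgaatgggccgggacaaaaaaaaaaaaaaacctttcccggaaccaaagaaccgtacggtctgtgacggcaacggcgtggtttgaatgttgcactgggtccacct
Mrpl42: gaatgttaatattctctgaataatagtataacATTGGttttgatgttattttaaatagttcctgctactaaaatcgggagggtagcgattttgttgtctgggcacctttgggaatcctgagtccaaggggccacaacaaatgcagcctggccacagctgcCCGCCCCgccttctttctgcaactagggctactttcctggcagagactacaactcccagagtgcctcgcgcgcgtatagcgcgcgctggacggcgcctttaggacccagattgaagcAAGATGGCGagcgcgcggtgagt
Mrpl37: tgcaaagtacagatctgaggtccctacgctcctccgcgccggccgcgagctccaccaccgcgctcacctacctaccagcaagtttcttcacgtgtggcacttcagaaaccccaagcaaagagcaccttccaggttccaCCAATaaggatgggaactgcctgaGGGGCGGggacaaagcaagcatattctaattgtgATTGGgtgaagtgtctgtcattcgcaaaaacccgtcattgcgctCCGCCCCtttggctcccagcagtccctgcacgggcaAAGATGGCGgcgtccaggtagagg
Mrps21: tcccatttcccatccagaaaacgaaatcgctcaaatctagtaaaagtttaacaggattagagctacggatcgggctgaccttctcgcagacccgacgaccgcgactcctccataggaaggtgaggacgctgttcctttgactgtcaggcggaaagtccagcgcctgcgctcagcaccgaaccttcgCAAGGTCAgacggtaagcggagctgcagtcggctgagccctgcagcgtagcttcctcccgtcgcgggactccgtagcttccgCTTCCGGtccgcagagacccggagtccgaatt
Mrpl22: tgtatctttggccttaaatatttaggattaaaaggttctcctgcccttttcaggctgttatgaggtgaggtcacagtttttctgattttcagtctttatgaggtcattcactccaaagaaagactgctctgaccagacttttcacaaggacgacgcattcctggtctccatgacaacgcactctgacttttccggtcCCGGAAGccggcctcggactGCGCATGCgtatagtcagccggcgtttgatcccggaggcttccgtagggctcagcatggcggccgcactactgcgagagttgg
The letters searched, on both strands, were GCATGCGC (the core bound by NRF1), CCGGAAG (ETS factors, to which the GABP complex belongs), AAGATGGCG (YY1), CAAGGTCA (ERR receptors), GGGGCGG (SP factors) and CCAAT (the CCAAT box). NRF1, GABP, YY1 and the ERR receptors are textbook regulators of nuclear genes for mitochondrial proteins. None of these strings contains another.

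The member promoters had a median G and C content of 58.5%, against 52.7% over all 32851 annotated promoters, and a median of 21 CG dinucleotides against 7. Most of those promoters belong to genes not tested here. The composition over tested genes alone was not taken, so these differences are not set against expressed genes. The ETS letters stood in 25 of the 68 members (36.8%), against 9.9% of all genes with a promoter and 20.9% of those tested here. The YY1 letters stood in 8 (11.8%), against 1.6% of all and 4.0% of tested genes. They occur in 3 of the 7 members whose groups did not overlap: Mrps24, Mrpl42 and Mrpl37. In these 3 windows they lie just past the annotated start. In the same 7 members, SP letters stood in 5, CCAAT in 4, ERR letters in 2, ETS letters in 1 and NRF1 letters in 0. The NRF1 letters stood in 8 members (11.8%, against 3.0% and 6.3%), 7 of them of the large subunit, and 4 members hold both NRF1 and ETS letters: Mrpl22, Mrps18b, Mrpl17 and Mrpl33. SP letters were found in 24 members (35.3%), against 25.5% of all and 49.9% of tested genes. CCAAT was found in 26 (38.2%, against 41.1% and 42.3%), and the ERR letters in 2, Mrps15 and Mrps21 (2.9%, against 1.8% and 1.3%). The Mrpl30 window holds none of the 6 strings. A match is only a run of letters and says nothing on binding.

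Below the threshold for calls, most members leaned the same way. The log2 difference was below 0 for 62 of the 77 (80.5%), against 45.4% of all genes tested. The median was -0.07 for the members and 0.02 for all genes tested, and the quartiles of the members were -0.13 and -0.00. An unadjusted p under 0.05 on the lower side was reached by 14 members (18.2%, against 7.03% of all genes) and on the higher side by 0, against 8.53%. Groups did not overlap on the lower side for 7 members (9.09%, against 2.23%): Mrpl30, Mrpl37, Mrpl42, Mrps15, Mrps21, Mrps24 and Mrps36, and on the higher side for 0, against 2.72%. With limma voom on recovered reads, 3 members were called lower (Mrps24, Mrpl30 and Mrpl3), against 1.95% of the genes fitted. The members are also more abundant than most genes, with a median of 15.7 against 4.41 FPKM, and lower values were commoner among abundant genes. Members of 1 complex can vary together from heart to heart, so these counts are not counts of independent events. The differences are small: the most negative was -0.36 and the most positive 0.20.

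**Figure D3:**
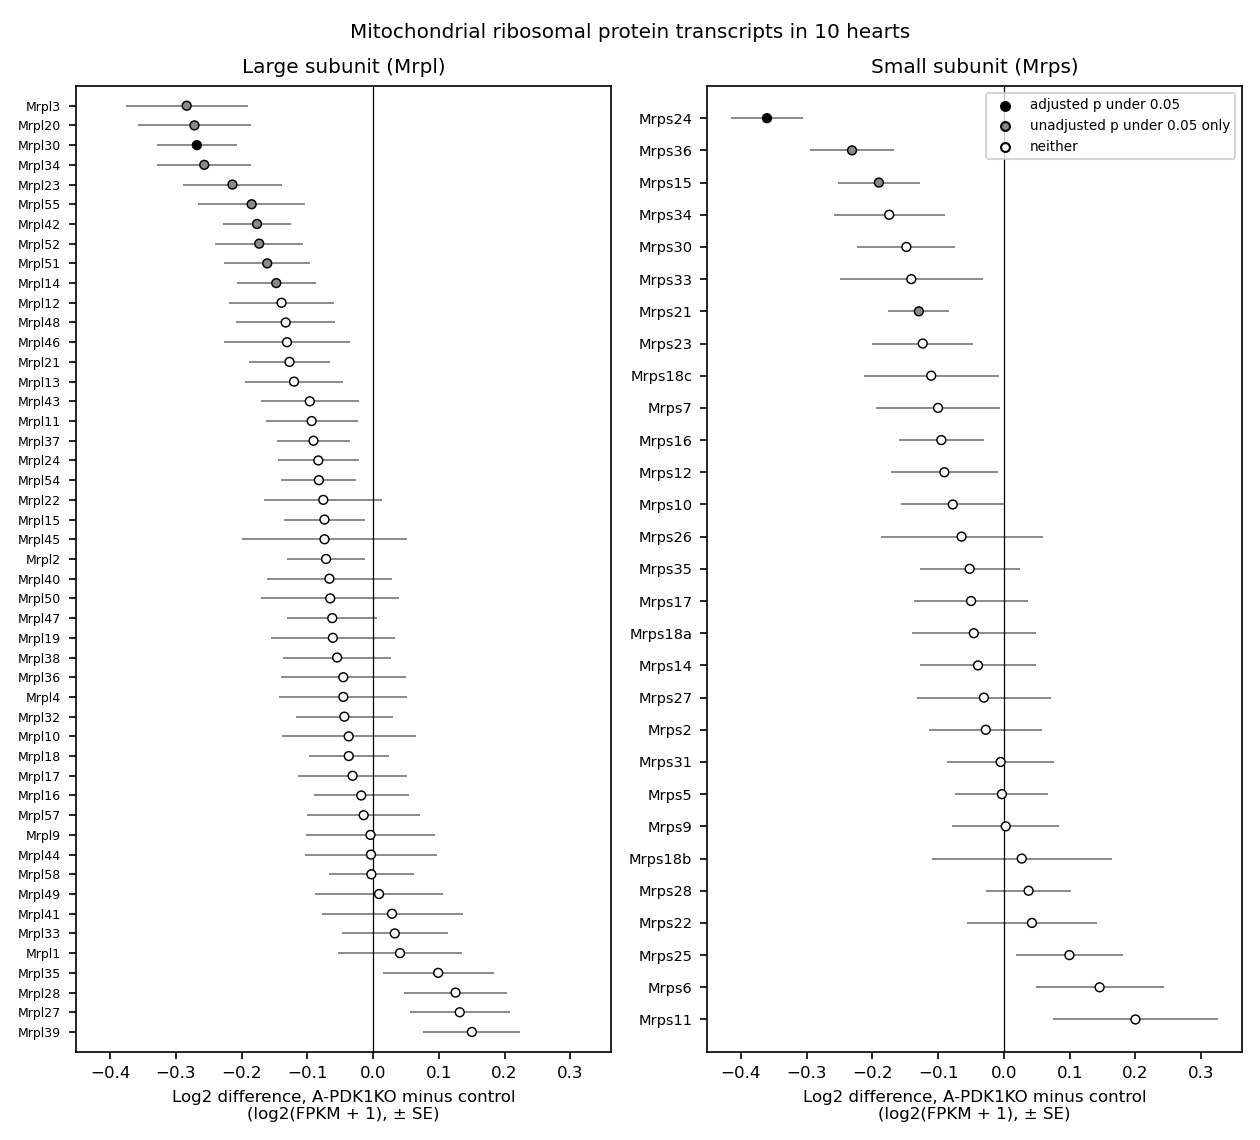
Log2 difference, A-PDK1KO minus control, with its SE for the 48 large-subunit members (left) and the 29 small-subunit members (right), ordered from most negative to most positive. Black points passed the adjusted threshold (Mrps24 and Mrpl30), grey points had an unadjusted p under 0.05 only, and open points neither; 62 of the 77 lie below 0.

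In the large subunit, 10 of 48 members had an unadjusted p under 0.05 on the lower side (20.8%, against 7.03% of all genes tested). Of the 48, 1 was called lower (2.08%, against 0.871% of all genes tested). Mrpl34 overlapped between groups, at 61.5, 74.1, 75.6, 79.8 and 74.3 FPKM in control and 59.8, 58.7, 63.4, 58.0 and 64.1 FPKM in A-PDK1KO hearts. Only control replicate 1 reached down into the A-PDK1KO range. Its log2 difference was -0.26 ± 0.07 (SE, limma adjusted p = 0.0952). Of 10 fits without 1 heart it was called in 1, that without control replicate 1 (adjusted p = 0.0269, up to 0.203 in the others). Of 15 other settings 1 called it. Mrpl42, a protein of mitochondrial ribosomes with no bacterial relative, was at 59.4, 57.2, 59.6, 62.6 and 62.5 FPKM in control and 53.3, 51.0, 53.0, 54.6 and 54.1 FPKM in A-PDK1KO hearts. Its groups did not overlap, yet its log2 difference of -0.18 ± 0.05 did not pass (adjusted p = 0.108). Mrpl20, which joins the bacterial large subunit early in assembly, stood at 22.2, 19.7, 19.2, 18.1 and 19.3 FPKM in control and 14.6, 19.6, 15.5, 16.7 and 14.7 FPKM in A-PDK1KO hearts. A-PDK1KO replicate 2 was the heart that lay among the controls, and without it Mrpl20 was called (log2 difference -0.34, adjusted p = 0.0455, against -0.27 and 0.140 with all hearts). That was 1 of 10 fits without 1 heart (limma adjusted p up to 0.279 in the others), and 2 of 15 other settings called Mrpl20. Mrpl37, another protein specific to mitochondria, held its hearts within 12.1 to 12.9 FPKM in control and 11.3 to 11.9 FPKM in A-PDK1KO, a difference of -0.09 on the log2 scale (adjusted p = 0.475, unadjusted p above 0.05). Of the others with an unadjusted p under 0.05, Mrpl3 is described with the disease genes, and Mrpl14, Mrpl23, Mrpl51, Mrpl52 and Mrpl55 had log2 differences of -0.15 to -0.21 and adjusted p of 0.189 to 0.299 (limma).

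In the small subunit, 4 of 29 members had an unadjusted p under 0.05 on the lower side (13.8%, against 7.03% of all genes tested). The groups of all 4 did not overlap. After Mrps24 came Mrps36, at 51.0, 60.1, 55.6, 55.1 and 59.0 FPKM in control and 50.5, 44.3, 45.3, 49.2 and 49.1 FPKM in A-PDK1KO hearts. Its highest A-PDK1KO and lowest control hearts were only just apart, and the log2 difference of -0.23 ± 0.06 did not pass (limma adjusted p = 0.0904). Mrps36 carries a ribosomal name but is now known as a component of the 2-oxoglutarate dehydrogenase complex of the citric acid cycle. It also has close copies, among them Mrps36-ps1 and Mrps36-ps2. Mrps15, whose bacterial relative binds ribosomal RNA early in assembly, was at 27.5, 29.5, 30.6, 32.3 and 27.8 FPKM in control and 24.8, 27.0, 25.9, 24.6 and 26.4 FPKM in A-PDK1KO hearts (log2 difference -0.19 ± 0.06, adjusted p = 0.152). Mrps21, the most abundant member and the steadiest, was at 118, 117, 119, 116 and 122 FPKM in control and 111, 110, 105, 108 and 108 FPKM in A-PDK1KO hearts. Its groups were clear of each other by a difference of only -0.13 ± 0.05 (adjusted p = 0.194).

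The log2 difference was above 0 for the other 15 members, none of which passed the test. The lowest p among them belonged to Mrpl39, at 15.3, 15.4, 13.9, 16.01 and 17.3 FPKM in control and 18.8, 18.7, 16.4, 15.8 and 17.3 FPKM in A-PDK1KO hearts. The groups overlapped, and the log2 difference was 0.15 ± 0.07 (limma adjusted p = 0.355). Mrpl27, whose bacterial relative reaches into the peptidyl transferase centre, had a difference of 0.13 (adjusted p = 0.446), Mrpl28 of 0.13 (0.483) and Mrpl35 of 0.10 (0.635). In the small subunit the corresponding members were Mrps11 (0.20, adjusted p = 0.486), Mrps6 (0.15, 0.524), Mrps25 (0.10, 0.619) and Mrps28 (0.04, 0.841). Mrps28 changed sign with the setting, to -0.00469 with voom and -0.00786 in the 6 hearts with little atrial tissue. Mrps6 shares 464 bp of exon with Gm49711 and Slc5a3 on the same strand.

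Members named for other roles showed no call. Mrpl12 was at 82.8 ± 7.08 FPKM in control and 75.2 ± 7.53 FPKM in A-PDK1KO hearts (log2 difference -0.14, limma adjusted p = 0.443). Mrpl58, a peptidyl-tRNA hydrolase that releases stalled chains, was at 12.4 ± 0.807 and 12.3 ± 0.513 FPKM, a difference of -0.00 ± 0.06 on the log2 scale. Of the 3 paralogues of bacterial S18, Mrps18c was the most abundant (16.3 ± 2.56 FPKM in control, 14.9 ± 1.33 in A-PDK1KO), Mrps18a followed (10.5 ± 1.20 and 10.2 ± 1.18) and Mrps18b was lowest (6.06 ± 1.30 and 6.14 ± 1.00). Their log2 differences were -0.11, -0.05 and 0.03.

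The human counterparts of 3 members, Mrpl3, Mrpl44 and Mrps22, are known from inherited heart muscle disease. Mrpl3 was at 9.09, 9.18, 10.3, 9.02 and 9.11 FPKM in control and 6.58, 9.29, 6.44, 8.12 and 7.35 FPKM in A-PDK1KO hearts. All but A-PDK1KO replicate 2 lay below every control heart, and the log2 difference was -0.28 ± 0.09 (limma adjusted p = 0.156). Mrpl44 differed by -0.00 ± 0.10 (25.02 ± 3.46 and 24.9 ± 2.66 FPKM) and Mrps22 by 0.04 ± 0.10 (3.26 ± 0.156 and 3.42 ± 0.690 FPKM).

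The difference varied with the level of the transcript, among the members and among all genes alike. Of the 26 most abundant members (21.6 to 113 FPKM), 11 (42.3%) had an unadjusted p under 0.05 on the lower side and 6 (23.1%) had groups that did not overlap, with a median log2 difference of -0.11. Over the 1031 tested genes of the same range of levels these shares were 20.1% and 8.63%, with a median of -0.05. In the middle 26 members (9.44 to 21.6 FPKM) the counts were 2 (7.69%) and 1 (3.85%), against 9.26% and 2.60% of 1501 genes, and the medians were -0.07 and -0.02. In the lowest 25 (2.64 to 9.37 FPKM) they were 1 (4.00%) and 0, against 4.70% and 1.10% of 3810 genes, with medians of -0.03 and 0.03. At counts this small, the shares of the middle and lowest members lay near those of other genes at their level. On recovered reads fitted with limma voom, the members' medians from the highest to the lowest level were -0.16, -0.11 and -0.08. The log2 difference and the log2 level correlated at r = -0.36 over the 77 genes (Pearson, a description; both come from the same libraries, and low genes are measured with fewer reads). With log2 exon length the difference correlated at r = 0.10.

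**Figure D4:**
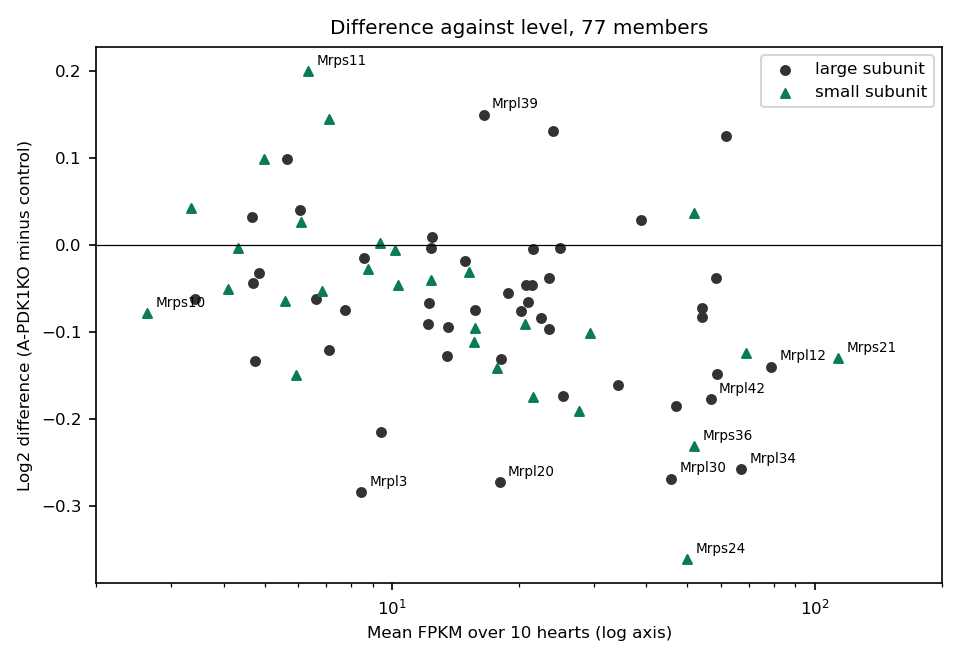
Log2 difference, A-PDK1KO minus control, against mean FPKM over the 10 hearts (log axis) for the 48 large-subunit (circles) and 29 small-subunit (triangles) members. The 26 most abundant members have a median of -0.11 and the 25 least abundant -0.03.

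The difference between the subunits was not tested. The median log2 difference was -0.07 for the large and -0.05 for the small subunit. Members below 0 were 40 of 48 (83.3%) and 22 of 29 (75.9%), against 45.4% of all genes tested. Groups did not overlap on the lower side for 3 of 48 (6.25%) and 4 of 29 (13.8%) members, against 2.23% of all genes tested. By structure, Mrps18a and Mrps30 sit in the large subunit and Mrps36 in neither, and with that assignment the medians of 50 and 26 members were -0.07 and -0.05. Summed over its members, the large subunit reached 1158, 1198, 1195, 1246 and 1215 FPKM in control and 1104, 1205, 1078, 1140 and 1109 FPKM in A-PDK1KO hearts. The small subunit reached 615, 631, 641, 647 and 629 FPKM in control and 571, 624, 548, 588 and 582 FPKM in A-PDK1KO hearts. A-PDK1KO replicate 2 lay among the controls in both sums, and the other A-PDK1KO hearts lay below every control heart in both. The ratio of the large to the small sum was 1.90 ± 0.0279 in control and 1.94 ± 0.0213 in A-PDK1KO hearts (SD, n = 5), with ranges of 1.865 to 1.931 and 1.905 to 1.965. In 4 of the 5 A-PDK1KO hearts, all but replicate 5, it lay above every control heart. These sums follow the symbols, so the small sum includes Mrps18a, Mrps30 and Mrps36. By structure, the mean large sum was 1219 FPKM in control and 1143 FPKM in A-PDK1KO hearts. The mean small sum was then 560 and 519 FPKM, and the ratio in each heart was not taken.

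Members together took 0.368 ± 0.00855% of counted reads in control and 0.344 ± 0.0163% in A-PDK1KO hearts. To set them beside the rest of the transcriptome, each gene was expressed as its deviation from its own mean over the 10 hearts, on the log2(FPKM + 1) scale. The median deviation of the members was 0.00, 0.03, 0.05, 0.09 and 0.05 in control and -0.09, 0.10, -0.11, -0.03 and -0.06 in A-PDK1KO replicates 1 to 5. A-PDK1KO replicate 2 was thus the highest heart of all, and control replicate 4 the next. In these same hearts the median of all genes tested was also highest, at 0.14 and 0.10, and the share of mitochondrially encoded reads was among the lowest, at 34.3% and 32.7%. The part of that share in the result was not tested. Relative to the median of all genes in the same heart, members stood at -0.0100 to 0.108 in control hearts and at -0.0750 to -0.0138 in A-PDK1KO hearts. These ranges only just separated, at control replicate 4 and A-PDK1KO replicate 1. The reference is not matched to the members in level: most genes are less abundant. Over the 1031 genes in the range of the most abundant members the median log2 difference was itself -0.05. A reference of that kind was not taken for each heart.

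**Figure D5:**
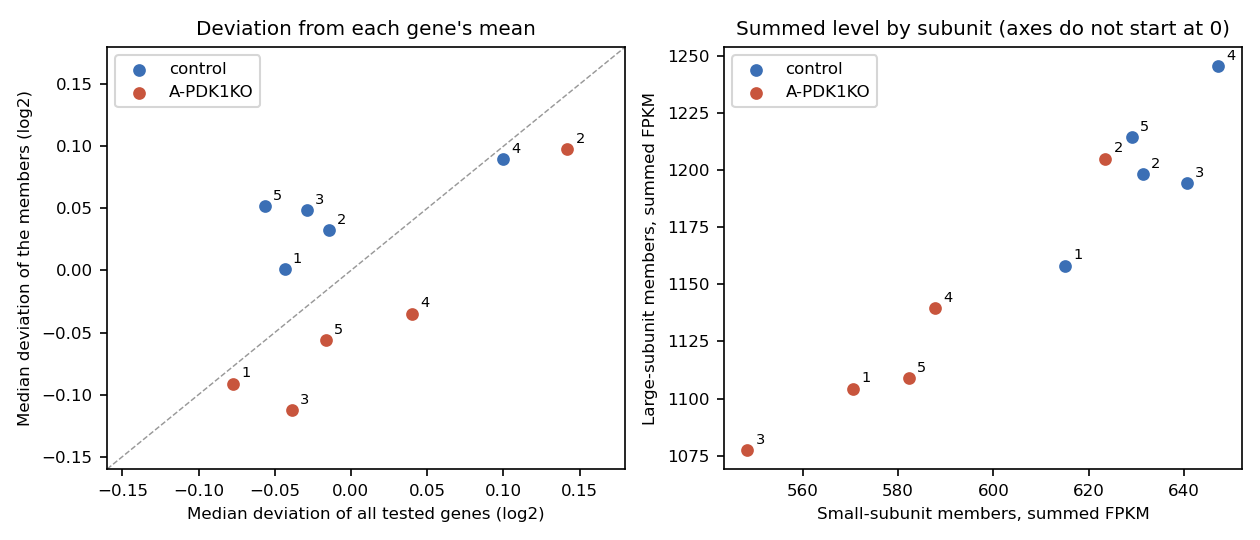
Left, median deviation of the 77 members against that of all genes tested in each heart, on the log2(FPKM + 1) scale. The dashed line marks equal values and numbers are replicates. All 5 A-PDK1KO hearts lie below the line while 4 of 5 control hearts lie above it, against a reference not matched to the members in level. Right, summed FPKM of the large against the small subunit on axes that do not start at 0; A-PDK1KO replicate 2 lies among the controls.

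Of the genes that serve this ribosome, none passed the test. The lists hold 92 genes, 84 of them tested. By list, 5 were other subunits of the mitochondrial ribosome, 17 translation factors and 30 assembly and RNA-processing factors. A further 19 were aminoacyl-tRNA synthetases or tRNA amidotransferase subunits (Gatb, Gatc and Qrsl1). The rest were 5 genes of transcription in the organelle, among them its RNA polymerase Polrmt, and 8 regulators of mitochondrial biogenesis. In all, 6 of the 84 (7.14%, against 8.53% of all genes tested) had an unadjusted p under 0.05 on the higher side and 4 (4.76%, against 7.03%) on the lower side. Their median log2 difference was 0.02, against 0.02 for all genes tested. The assembly factors had a median of 0.05, with 12 of 30 below 0. Ddx28, a helicase needed for large-subunit assembly, was at 4.06, 3.53, 2.58, 4.16 and 3.96 FPKM in control and 5.49, 5.08, 4.52, 5.09 and 4.99 FPKM in A-PDK1KO hearts. Its groups did not overlap and the difference was 0.38 ± 0.10 (limma adjusted p = 0.0812). Tfb1m, which methylates the small ribosomal RNA, differed by 0.26 (adjusted p = 0.163). The arginyl-tRNA synthetase Rars2 differed by -0.27 (0.148) and the small-subunit protein Chchd1 by -0.27 (0.178). Among the regulators, Ppargc1a was at 4.497 ± 0.801 and 4.56 ± 1.22 FPKM, Gabpa at 6.35 ± 0.501 and 6.52 ± 1.08 FPKM and Yy1 at 7.57 ± 0.553 and 7.73 ± 0.423 FPKM in control and A-PDK1KO hearts.

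The ribosomal RNAs of the particle, encoded by the mitochondrial genome, also had log2 differences below 0, and neither passed the test. The large-subunit RNA mt-Rnr2 was at 16075, 13210, 14826, 8807 and 14184 FPKM in control and 9635, 6814, 10374, 9252 and 8645 FPKM in A-PDK1KO hearts. Control replicate 4 was the only control heart inside the A-PDK1KO range. The log2 difference was -0.57 ± 0.15 (limma adjusted p = 0.0836) and depended on the setting: it became -0.71 (adjusted p = 0.0185) without control replicate 4 and -0.21 (adjusted p = 0.471) with quantile normalization. The small-subunit RNA mt-Rnr1 was at 8654, 7802, 8591, 6132 and 8043 FPKM in control and 6928, 4629, 6780, 5720 and 6300 FPKM in A-PDK1KO hearts, a difference of -0.37 ± 0.12 (adjusted p = 0.147), which over other settings and fits without 1 heart ranged from -0.46 to -0.28. Without both control replicate 4 and A-PDK1KO replicate 2, mt-Rnr1 (adjusted p = 0.0423) and mt-Rnr2 (adjusted p = 0.0204) both passed. The labels do not describe the library preparation, and how far ribosomal RNA was removed in each heart was not tested.

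The members are scattered over 17 chromosomes, with the largest numbers on chromosomes 11 (11 genes) and 17 (8 genes). In the GENCODE release 21 annotation, 18 of the 77 (23.4%; 12 of the large and 6 of the small subunit) start within 500 bp of a coding gene that is read in the opposite direction, against 6.3% of 21938 coding genes. Mrpl30 is 1 of them, with 66 bp between its start and that of Mitd1, and Mrps12 faces Sars2, which encodes the mitochondrial seryl-tRNA synthetase. Exons of 32 members overlap those of another gene, 7 on the same strand and 27 on the opposite strand, and 34 members have stretches of at least 100 bp that recur elsewhere at 95% identity or more. The labels do not say whether reads were counted by strand, so values of these members can include reads of their neighbours or copies. Neither Mrps24, Mrpl34, Mrps15, Mrpl37 nor Mrpl3 has such a copy.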

How the data were processed

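Heart RNA of 5 A-PDK1KO and 5 control mice was compared, with groups from the titles. Per the labels' protocols, paired-end reads were checked in FastQC 0.11.7. The submitters' processing notes name HISAT2 2.1.0, featureCounts 1.6.3, Trimmomatic 0.38 and the mm10 build. The labels are silent on annotation, strand setting, library kit, sex and batch. The deposited values are FPKM made by the authors, 1 column per heart for 11790 genes. Every gene listed reaches at least 1.0 FPKM in some heart, and a deposited column of cluster numbers, 0 to 15, was not used.

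Whole reads were recovered from FPKM and GENCODE mouse release 21 exon lengths for 98.2% of genes, within 0.05 of a read, which gave 9249256 to 11384420 counted reads per heart and whole values for all 77 members. FPKM were tested as log2(FPKM + 1) with limma 3.58.1 (empirical Bayes with trend) in R 4.3.3 for 9987 genes averaging 1 FPKM or more, adjusted by Benjamini-Hochberg over all of them. Reads were simulated for 9692 genes in 5 against 5 samples, with the same spread set for every gene and not estimated from these hearts. The test recovered 0% of genes changed 1.25-fold, 48.9% of those changed 1.5-fold and 100% of those changed 2-fold, with 8 false among 127 calls.

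The members, lists and tests were chosen with earlier results of these data known. Named were called members, per subunit the 4 of smallest p in each direction, the 3 of highest and 3 of lowest level, the 3 most and 3 least variable of all, 8 members with other roles, and the 4 list genes of smallest p. Members outside that rule (the others with an unadjusted p under 0.05, those with particular promoters, overlaps or neighbours), mt-Rnr1, mt-Rnr2, Urgcp and 3 regulators were chosen after their values were seen. Protein sequences were not used here. Copies were found with BLAST 2.17.0. Other settings were another pseudocount (0.1), no filter or 5 FPKM, 5 scalings or normalizations including limma voom on recovered reads, robust variances, sample weights, a replicate block, an atrial covariate, subsets of hearts, and a threshold of 0.1. Voom without scaling factors, subunits by structure and the comparison with all genes of the same range of levels were added after seeing the data.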

Additional observations from a re-analysis of the deposited data

Results flagged for a closer look

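Each group of 5 hearts was examined for a heart far from the other 4, among the named members, the named list genes, the ribosomal RNAs and the subunit sums, with a gap over 0.71 of the group's range. This flagged 6 of 80 groups. For groups that are independent and not selected, chance flags about 1 in 20. The groups here share the same hearts, and some members were named for their large or small spread, so that rate is no yardstick for them. Of the 6, 4 are in A-PDK1KO replicate 2: Mrpl27 (29.7 FPKM, where the rest of the group spans 23.2 to 24.8), Mrps10 (3.11, against 2.30 to 2.50), Mrps18b (7.86, against 5.30 to 6.04) and Mrps22 (4.602, against 2.88 to 3.34). In all 4 it was the highest heart of its group. That heart also had 10723 genes at 1 FPKM or more. The other flags were Mrpl3 in control replicate 3 (10.3 FPKM, against 9.02 to 9.18) and the small-subunit gene Chchd1 in control replicate 1 (75.5 FPKM, against 57.7 to 61.3).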

How the results depend on the processing

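The median log2 difference of the members lay below 0, and below that of all genes tested, under every setting tried, standing -0.06 (quantile normalization) to -0.10 (without control replicate 4) from all genes. Members with an unadjusted p under 0.05 numbered 4 to 22 on the lower and 0 to 3 on the higher side. The share of all genes at that limma threshold was taken in the main fit only (7.03% lower, 8.53% higher). The 208 called genes, 2.08% of those tested, became 0.621% (62 genes) on the TPM scale, 3.14% (314) with scaling without mitochondrially encoded and haemoglobin genes, 4.13% (412) with sample weights, 3.41% with limma voom, 0.0397% (4) in the 6 hearts with little atrial tissue, 3.69% (369) at an adjusted p under 0.1, and 0.570% (57) to 1.51% (150) with 1 heart left out. They fell by over 1.5 times without control replicate 1 (123), 3 (77) or 5 (96) or A-PDK1KO replicate 1 (106), 3 (62) or 5 (57). Higher genes were 58.2% of calls, 70.1% (220, with 94 lower) with scaling without mitochondrially encoded and haemoglobin genes, and 42.8% (143, with 191 lower) with voom.

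Members called lower, 2, became 0 on the TPM scale and in the 6 hearts, 1 (Mrps24) with no filter, median-of-ratios factors, scaling without mitochondrially encoded and haemoglobin genes or quantile normalization, 6 with sample weights (also Mrpl3, Mrpl20, Mrpl34 and Mrps36), 4 at 0.1, and 1 to 2 with 1 heart left out. Over all genes, 87 of 9987 were called lower in the main fit, 193 with sample weights and 21 on the TPM scale. The number was 3 of 10072 in the 6 hearts, 71 of 11790 with no filter, and 24 to 88 with 1 heart left out. It was 105 with median-of-ratios factors, 94 with scaling without mitochondrially encoded and haemoglobin genes and 95 with quantile normalization. At 0.1 only the share of all genes called in either direction is given here. Genes of the translation lists, 0, became 1 with scaling without mitochondrially encoded and haemoglobin genes (Spg7), 1 with quantile normalization (Rars2), 2 with sample weights (Ddx28, Chchd1) and 1 at 0.1. Mrps28 reversed with voom (-0.00469) and in the 6 hearts (-0.00786). The cause was not tested. Of the values of single genes, 510 kept direction and side of the threshold, 19 lost and 13 gained a call.

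Replicate numbers did not pair the hearts: same-numbered deviations correlated at -0.12 to 0.09, and 0 of 5 controls correlated best with their own number. With the replicate block 153 genes were called and 1 member (Mrps24; Mrpl30 adjusted p = 0.0890). A planned edgeR test of the recovered reads was not run, since the values are FPKM. In data simulated at this depth, a 1.25-fold change was not recovered. The spread there was set to the same value for every gene and not taken from these hearts. It therefore does not measure what the test could find here.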
